A study of Malus domestica with 6 samples.

Results

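A set of 58 gene models that were well expressed in seeds of central apple fruits and lower in seeds of lateral fruits was examined. They are the gene models that averaged 10 RPKM or more over the central libraries and whose largest lateral value was at most 0.75 times their smallest central value. RPKM is the read number of a gene scaled to its length and to the mapped reads of the library. The 58 members were 0.404% of the 14353 gene models with a central mean of this size, out of 63517 gene models in all. All seeds came from untreated adult trees of the cultivar Golden Delicious and were taken 20 days after petal fall. One group was seeds of the central fruit of each cluster and the other was seeds of mid-sized lateral (L2) fruits, with 3 replicate libraries each. Seeds of different fruitlets were pooled for every library, and fruits were sorted by position and size only, so no fruit was known to be about to drop. The members were chosen on the difference between lateral and central libraries, so all values of that difference below are a description of them and not a test. The word fall is used for this measured difference.

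An apple cluster opens from its central flower, and the central fruit stays ahead of the lateral ones in growth. Developing seeds are a main source of auxin, which moves out through the fruit stalk and holds back abscission, and fruits whose auxin stream weakens become sensitive to ethylene and are shed. Lateral fruits are shed more readily than central ones. The study calls lateral fruits younger and does not exclude developmental stage as a source of some differences. Position in the cluster and developmental stage cannot be told apart here. Seeds at this time hold a young embryo, endosperm and seed coat, and whole seeds were extracted. A lower value can therefore stand for fewer cells of a type or for less RNA per cell, and these cannot be told apart either. The identifiers of the 58 members are not paired with gene names in the sources used here, so no function is given to any of them, and the seeds were not checked against markers of seed tissues.

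The depth recovered from the RPKM values ran from 14238640 reads in lateral replicate 1 to 37767724 reads in lateral replicate 2, and the other 4 libraries lay between them. According to the column names, lane 7 of the sequencer held all central libraries together with lateral replicate 3, and lane 8 held the other 2 lateral libraries and no central one. Within a lane, central seeds can thus be set against lateral replicate 3 alone. Beyond the division by mapped reads, no scaling between libraries had been applied. The 3 libraries of a group are separate pools, so a standard error or p measures the spread between pools.

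The members covered a wide range of expression levels. Their central means lay between 10.2 and 743 RPKM (median 25.6 RPKM) and their lateral means between 2.65 and 481 RPKM (median 14.1 RPKM). In central fruit seeds 23 members lay between 10 and 20 RPKM, 21 between 20 and 50 RPKM, 9 between 50 and 100 RPKM and 5 at or above 100 RPKM. The median central mean of all 14353 gene models of this size was 25.2 RPKM, close to that of the members. The mean of the members was 1.45-fold to 4.87-fold lower in lateral fruit seeds, with a median of 1.79-fold. In 22 of the 58 members it was at least 2-fold lower.

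**Figure D1:**
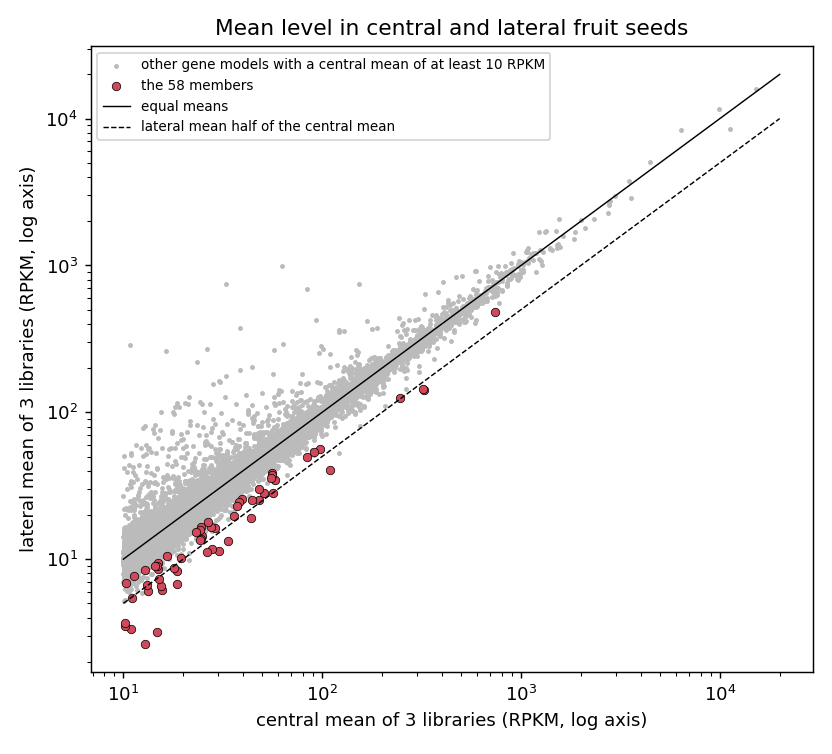
Mean RPKM of 3 lateral libraries against the mean of 3 central libraries, both on log axes, for gene models with a central mean of at least 10 RPKM. The 58 members (red) lie towards the lower edge of the cloud between 10.2 and 743 RPKM. Of these, 22 lie on or under the dashed line that marks a 2-fold lower mean. Some other gene models fell further in the mean than some members, since the limit is set on single libraries.

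Summed over the members, the central libraries held 3553, 3276 and 3259 RPKM in replicates 1 to 3 and the lateral libraries 1888, 1838 and 1773 RPKM. This was between 0.325% and 0.361% of all RPKM in the central and between 0.179% and 0.191% in the lateral libraries. The lateral sum was 0.545 of the central sum. The 3 most strongly expressed members made up between 38.4% and 45.1% of the sum in each of the 6 libraries. Without the strongest member the lateral sum was 0.516 of the central sum.

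The same limits turned round, with the smallest lateral value at or above the largest central value divided by 0.75, were met by 291 gene models (2.03%). Of these, 186 (63.9%) were at least 2-fold higher in lateral fruit seeds, compared with 22 (37.9%) of the 58 members that were at least 2-fold lower. The median of the 291 was 2.23-fold higher, and 31 of them differed by more than the 4.87-fold of the member that fell furthest. These numbers are not like for like, since the members pass the minimum of 10 RPKM through the group where they are high and the 291 gene models through the group where they are low. All lateral values lay below all central values in 2065 of the 14353 gene models (14.4%) and above them in 1725 (12%), and the share of the lower ones among both was 54.5%. It was 64.0% with all libraries scaled to the same total and 52.4% with median-of-ratios scaling, and the limits were then met by 71 lower and 275 higher and by 58 lower and 295 higher gene models.

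The furthest fall was that of MDP0000333088. In replicates 1 to 3 it was at 12.4, 14.2 and 12.2 RPKM for central seeds and at 2.47, 2.79 and 2.70 RPKM for lateral ones. All 3 lateral values lay close together, far below the central ones. They rest on few reads, since the recovered coding length was only 198 bases: 7, 21 and 13 reads in the lateral and 53, 86 and 55 reads in the central replicates. An exact Poisson interval of 95% for the 7 reads, which covers counting error only, reaches from 0.992 to 5.08 RPKM, still below every central value.

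MDP0000193502 had 14.1, 16.8 and 13.1 RPKM in the central and 2.73, 2.56 and 4.30 RPKM in the lateral replicates. Lateral replicate 3 stood above the other lateral libraries, yet its value was well under the lowest central one. The fall of this gene was covered by 406 to 699 reads in central and by 53 to 142 reads in lateral libraries, many more than for MDP0000333088. MDP0000850409 was the least even member, with 10.7, 10.2 and 11.9 RPKM in the central and 1.77, 2.67 and 5.55 RPKM in the lateral replicates. The coefficient of variation of its lateral values was 59.4%, the largest among the members. Only 6 reads stand behind the value of lateral replicate 1 and 32 behind that of lateral replicate 3. The 95% Poisson intervals of these values, from 0.648 to 3.85 and from 3.79 to 7.83 RPKM, just overlapped. Its log2 difference from the central mean was -2.33 and -1.85 in the libraries of lane 8 and -0.92 in lateral replicate 3, and whether the lane has a part in this was not tested.

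The lateral values of the next falls were more even than those of MDP0000850409. MDP0000308970 had 9.34, 9.31 and 11.9 RPKM in the central and 3.54, 3.44 and 3.54 RPKM in the lateral replicates, so that its lateral libraries hardly differed. MDP0000230263 had 18.1, 20.9 and 16.7 RPKM in the central and 6.73, 5.54 and 7.89 RPKM in the lateral replicates. MDP0000915991 had 9.74, 9.03 and 11.7 RPKM in the central and 4.48, 2.88 and 3.73 RPKM in the lateral replicates. In these 3 genes the lateral mean was between 0.344 and 0.364 of the central mean. They were recovered as gene models of 1974, 1587 and 3567 coding bases with at least 100, 153 and 229 reads in every library.

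At the upper end of the range, MDP0000134273 was the most strongly expressed member. It had 818, 709 and 702 RPKM in the central and 495, 475 and 472 RPKM in the lateral replicates, and its reads numbered 11405 or more in every library. The mean was 743 ± 65.1 RPKM (SD, n = 3) in the central and 481 ± 12.4 RPKM (SD, n = 3) in the lateral group, so its fall was among the smaller ones (0.647 of the central mean). Central replicate 1 stood apart from the other central libraries in this gene. Without it the log2 fold change was -0.55 instead of -0.62, and the fall was then under 1.5-fold.

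MDP0000317816 was the most even of the strongly expressed members. It had 251, 235 and 256 RPKM in the central and 122, 127 and 125 RPKM in the lateral replicates, and its log2 fold change was -0.98 (standard error 0.07, limma). Leaving out each library in turn kept it between -1.02 and -0.96. MDP0000213770 had 113, 96.7 and 83.0 RPKM in the central and 60.1, 55.2 and 54.5 RPKM in the lateral replicates, with the central libraries spread more widely than the lateral ones. MDP0000423596 had 81.6, 96.9 and 93.5 RPKM in the central and 52.9, 56.2 and 53.0 RPKM in the lateral replicates. MDP0000923711 had 84.7, 78.8 and 87.3 RPKM in the central and 51.3, 48.7 and 49.3 RPKM in the lateral replicates. The lateral mean of these 3 genes was between 0.581 and 0.596 of the central mean, so they fell by nearly the same proportion.

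**Figure D2:**
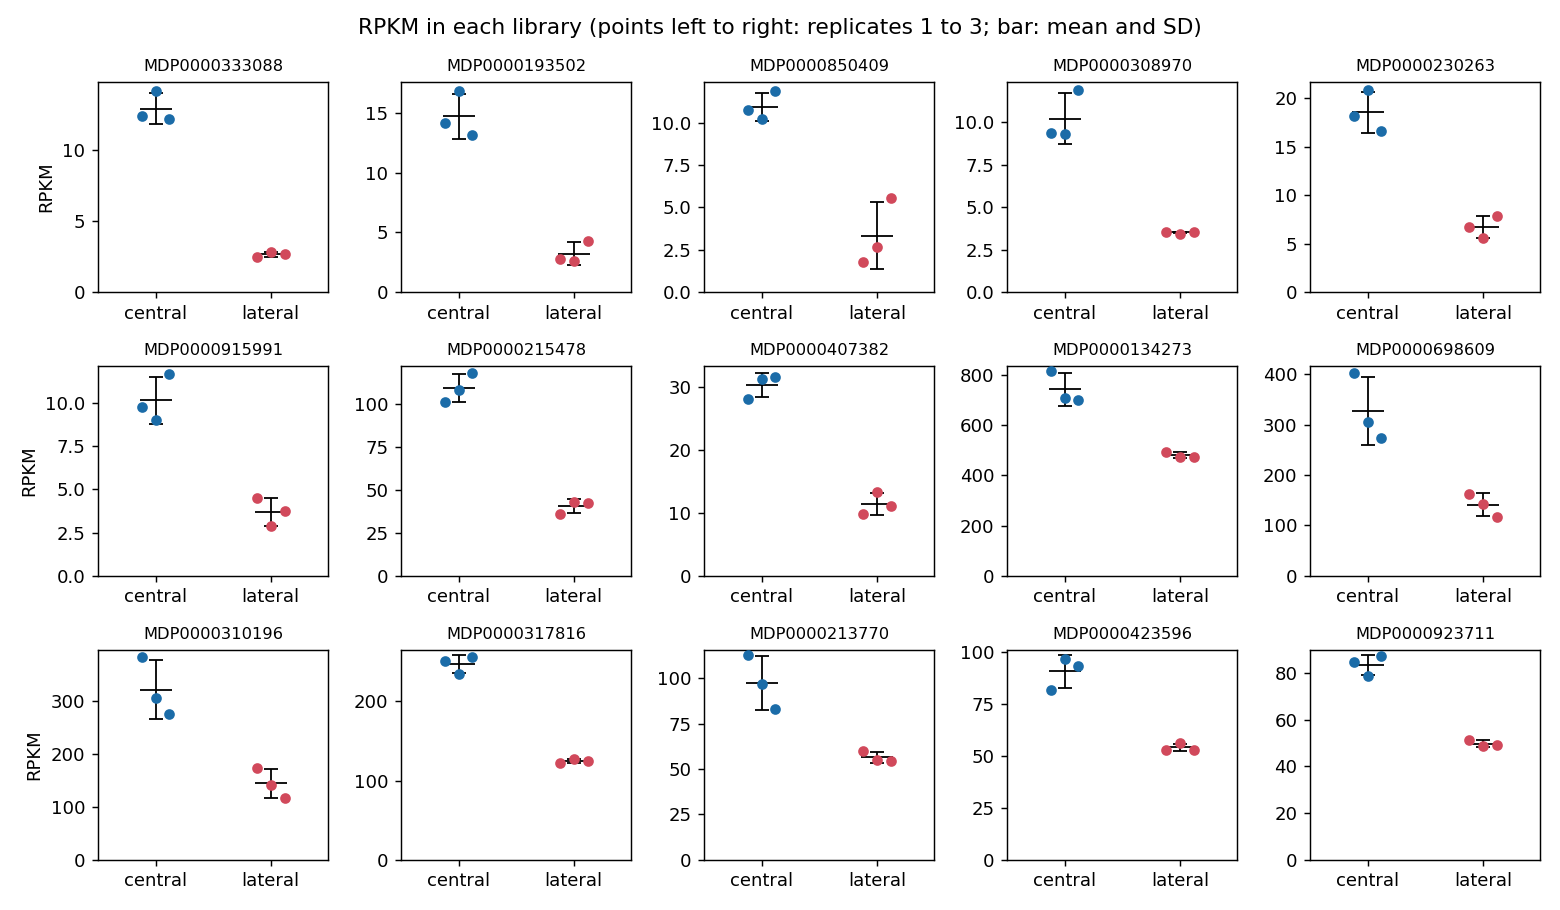
RPKM (linear axes from 0) in the 3 central (blue) and 3 lateral (red) libraries for the 8 members with the largest falls and the 7 others among the 8 with the highest central means. Points are single libraries, horizontal bars the mean and whiskers 1 SD; in every panel the lateral points lie below the central points, and MDP0000850409 has the widest lateral spread.

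Several members had equal lengths and similar profiles. By the rule all members are high in central and low in lateral libraries, so part of any likeness between profiles was built in. MDP0000698609 had 402, 306 and 273 RPKM in the central and 163, 142 and 117 RPKM in the lateral replicates. MDP0000310196 had 384, 306 and 276 RPKM in the central and 174, 142 and 118 RPKM in the same order. Both were recovered with a coding length of 612 bases and with nearly the same reads, for example 5727 and 5728 in central replicate 2 and 1744 and 1753 in lateral replicate 3. After each gene was centred on its own mean, their log2 values differed by at most 0.086 in any library. This was the only pair of members with a length within 2% and a profile within 0.1. These values include reads with several possible positions in the genome, so the 2 gene models may share reads and are not independent measurements.

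Equal lengths were also found in other members, of which MDP0000238551, MDP0000171573 and MDP0000123910 are named after their values were seen. MDP0000215478, MDP0000407382 and MDP0000238551 were all recovered with 555 coding bases. MDP0000215478 had 101, 108 and 118 RPKM in the central and 35.7, 43.2 and 42.5 RPKM in the lateral replicates. MDP0000407382 had 28.2, 31.3 and 31.6 RPKM in the central and 9.81, 13.3 and 11.2 RPKM in the lateral replicates, and MDP0000238551 had 26.2, 28.5 and 28.9 and then 10.4, 12.6 and 12.2 RPKM. In all 3 genes central replicate 3 was the highest and lateral replicate 1 the lowest library, and their centred log2 profiles differed by at most 0.17. MDP0000171573 and MDP0000123910 shared a length of 1077 bases and were both highest in central replicate 3, with a largest difference of 0.25 between their profiles.

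In all, 11 members shared their length with another member, at 5 lengths and in 7 pairs out of 1653 possible ones (0.423%). The pairs are not independent, since the 3 genes of 555 bases give several of them. Among the other gene models with a central mean of at least 10 RPKM, 0.123% of the pairs were of equal length. The remaining equal pairs were less alike, with profiles that differed by up to 0.37 and 0.48. Profiles were also close between members of unequal length. MDP0000231493 (1533 bases) and MDP0000183470 (1494 bases) differed by at most 0.099, and the latter is named after its values were seen. A close profile alone therefore does not mark a copy. Whether these gene models are near-identical copies was not tested, because their sequences were not used here.

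**Figure D3:**
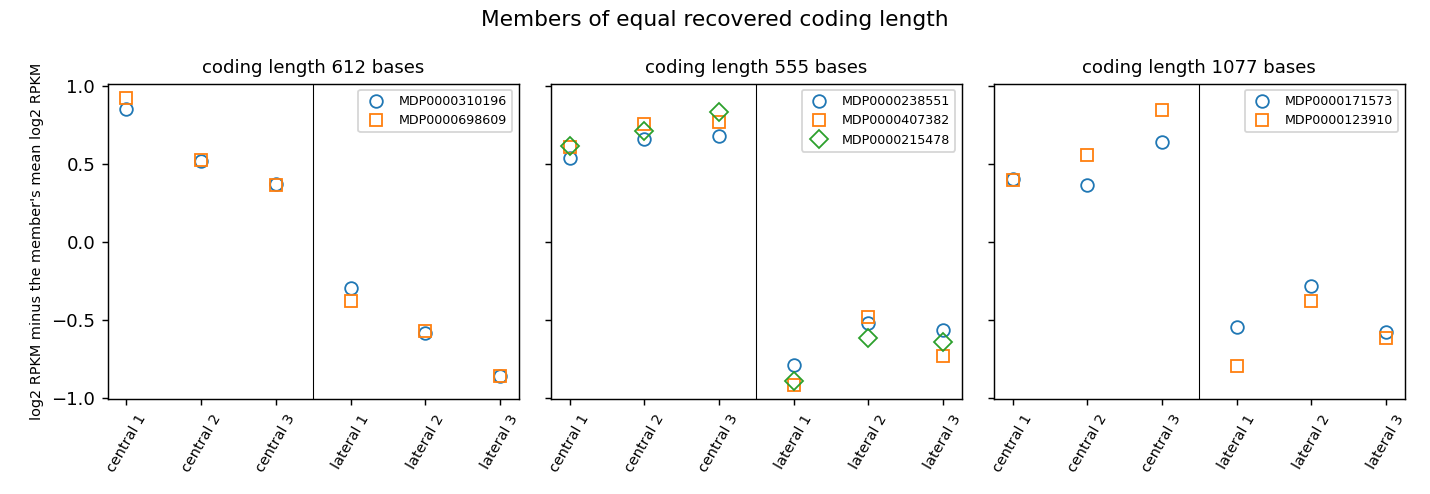
Log2 RPKM of each library minus the mean log2 RPKM of the gene, for members of equal recovered coding length (612, 555 and 1077 bases); symbols mark the gene models and the vertical line separates central from lateral libraries. The symbols nearly coincide for the pair of 612 bases and lie within 0.17 of each other for the 3 genes of 555 bases.

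The 40 members outside the list of named genes had central means between 10.3 and 58.2 RPKM and lateral means between 5.41 and 37.5 RPKM. Their lateral mean was between 0.395 and 0.684 of the central mean (median 0.566), and 12 of them were at least 2-fold lower. By level, the median fall was 2.05-fold in the 23 members between 10 and 20 RPKM in central fruit seeds, 1.76-fold in the 21 between 20 and 50 RPKM, 1.68-fold in the 9 between 50 and 100 RPKM and 2.23-fold in the 5 above. At least 2-fold lower were 13, 5, 1 and 3 of them in this order. The median was thus over 2-fold at both ends of the range of levels, and the 5 strongest members include the pair that may share reads and 1 gene of 555 bases.

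The limit of 0.75 divided a continuous range. Just inside it were MDP0000231493, MDP0000703059 and MDP0000444367, whose largest lateral value was 0.745, 0.744 and 0.741 of the smallest central one. MDP0000231493 had 53.4, 57.5 and 57.0 RPKM in the central and 36.6, 39.8 and 39.8 RPKM in the lateral replicates. Just outside were MDP0000280403, MDP0000929646 and MDP0000914447, at 0.751, 0.752 and 0.752. MDP0000280403 had 14.1, 17.7 and 15.3 RPKM in the central and 10.6, 7.67 and 10.2 RPKM in the lateral replicates. Its lateral mean was further below its central mean than that of MDP0000231493, so the limit favours genes whose replicates lie close together. Among the members 25 lay above 0.7 and 9 at or below 0.5, and a further 56 gene models lay above 0.75 and at most at 0.8. The number of members was 33 with a limit of 0.7 and 114 with one of 0.8.

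The rule bounded the value of every lateral library, so their evenness across the members was largely fixed by the choice and the values of each library are given as a description. Relative to the central mean of each member, the median was 0.557, 0.568 and 0.556 in lateral replicates 1 to 3. On the log2(RPKM + 0.5) scale the median difference from the central mean was -0.81, -0.80 and -0.83, where over all 37230 gene models tested it was -0.01, -0.03 and 0.00. These medians cannot show whether the lanes differ. Lateral replicate 1 was the lowest lateral library in 23 members, lateral replicate 2 in 16 and lateral replicate 3 in 19, and among the other gene models with a central mean of at least 10 RPKM in 37.9%, 35.3% and 26.8%. A value of at most 0.5 times the central mean was reached by 19, 22 and 23 members in lateral replicates 1 to 3.

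Central replicate 3 was the highest central library in 26 members, and central replicates 1 and 2 in 16 each. The lowest central library was replicate 1 in 23 members, replicate 2 in 17 and replicate 3 in 18. Among the other gene models with a central mean of at least 10 RPKM, the highest library was central replicate 1 in 25.5%, replicate 2 in 38.6% and replicate 3 in 35.8%, and the lowest in 31.0%, 29.8% and 39.3%. Whether the members differ from these shares was not tested. The largest spread between the central pools was that of MDP0000478556, named for it after its values were seen, with 45.7, 33.6 and 28.5 RPKM and a coefficient of variation of 24.7%. The median coefficient of variation of the members was 8.53% in central and 7.30% in lateral fruit seeds, close to the 8.14% and 7.58% of the other gene models of this level. The rule used the same values and acts on their spread, so this likeness is a description only.

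**Figure D4:**
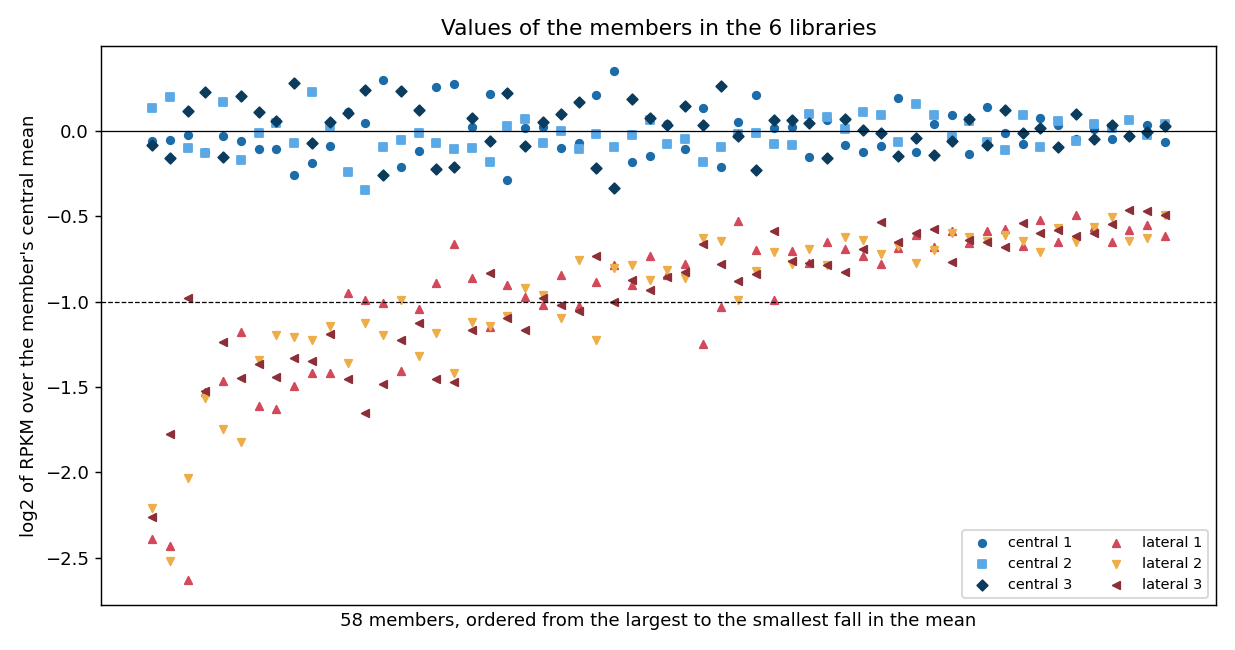
Log2 of the RPKM of each library over the central mean of the member, for the 58 members ordered by the size of their fall; blue symbols are central and red or yellow symbols lateral libraries, and the dashed line marks a 2-fold lower value. All lateral symbols lie below the central ones, as the rule requires, and their scatter differs between members, with MDP0000850409 the widest.

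In limma on log2(RPKM + 0.5), 50 of the 58 members were at least 1.5-fold lower at an adjusted p of at most 0.05 (Benjamini-Hochberg over 37230 gene models). The same was true of 0.459% of all 37230 gene models and of 0.606% of all gene models with a central mean of at least 10 RPKM. Since the rule used the same libraries and the same contrast, the number of members called shows nothing beyond the rule. The remaining 8 members had a fall of under 1.5-fold on this scale. The members had log2 fold changes between -2.09 and -0.52 (median -0.82) and standard errors between 0.07 and 0.31. The median over all gene models tested was -0.02. A fit with a term for the lane, added after seeing the data, called 26 members, and in it lateral replicate 3 alone carries the comparison. The median log2 fold change of the members was -0.83 in this fit.

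The rule was also applied to 5 libraries and the gene models it chose were read in the sixth. These are larger sets than the 58 members, and the libraries of the other group, against which the sixth is set, were part of the choice. The shares over all gene models, which were not chosen in this way, are therefore no like-for-like background. Without lateral replicate 1 it chose 100 gene models, and in 98 of them lateral replicate 1 lay below all central values. Without lateral replicate 2 it chose 99, of which 96 were separated in that library, and without lateral replicate 3 it chose 84, of which 81 were separated. Over all gene models of this level the separation of these libraries was found in 37.1%, 33.2% and 30.5%. The library left out was at a median of 0.654, 0.640 and 0.627 of the central mean, whereas the pairs of lateral libraries that made the choice were at 0.585, 0.584 and 0.565. The median difference was therefore smaller in the lateral libraries that were left out than in those used. The rule bounded the values of the libraries used and not those of the one left out, so this direction comes with the choice. For lateral replicate 3 the comparison was within lane 7.

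The same was done with the central libraries. Without central replicate 1 the rule chose 101 gene models, and in 96 of them that replicate lay above all lateral values. The numbers were 90 of 95 for central replicate 2 and 98 of 111 for central replicate 3, compared with 33.8%, 37.8% and 32.7% over all gene models of this level. Genes are not replicates and the left-out libraries share the other group, so no p is given.

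**Figure D5:**
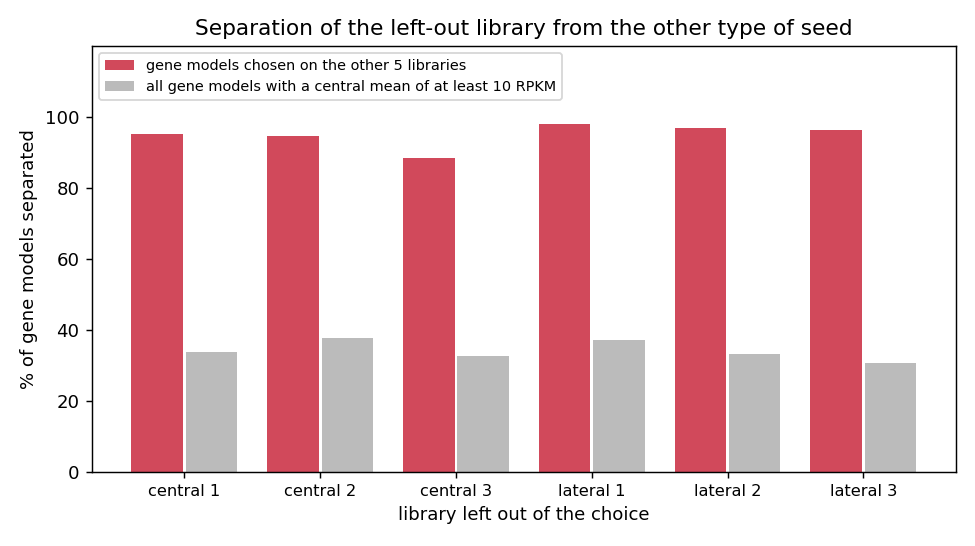
Percent of gene models in which the library left out of the choice was separated from all libraries of the other type of seed, lateral below central; red bars are the gene models chosen by the rule on the other 5 libraries and grey bars all gene models with a central mean of at least 10 RPKM. The red bars lie between 88.3% and 98.0% and the grey bars between 30.5% and 37.8%. The libraries against which the left-out one is set were part of the choice for the red bars. The grey bars are therefore no like-for-like background.

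Length and depth did not enter the rule directly. The members had a median recovered coding length of 1085 bases, with 612 and 1603 bases as quartiles, close to the other gene models of this level with a median of 1071 bases and quartiles of 618 and 1680 bases. All their lengths were multiples of 3, as were 97.4% of those of all gene models above 0, so they are coding lengths. The smallest number of reads of a member in any library had a median of 282, and 43 of the 58 members had at least 100 reads in every library. The larger falls were found among the shorter members. The 29 shorter ones were 2.04-fold lower in the median and the 29 longer ones 1.68-fold, and 16 of the 22 members that were at least 2-fold lower were among the shorter ones. The shorter members also had fewer reads, with a median of 107 in their smallest library compared with 391. Across the 58 members, which share the same 6 libraries, Spearman's rho with the ratio of the means was 0.39 for length and 0.50 for the smallest number of reads. Both values of rho are tied to the choice of members. The smallest number of reads can come from a lateral library, whose value also enters the ratio. The limit sets the largest lateral against the smallest central value, so the scatter between replicates also enters the choice. The part of the read number in the size of the falls was not tested.

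None of the genes that the study names for auxin transport was a member. By qRT-PCR on seeds of the same day after petal fall, the study reports that their expression was strongly reduced in lateral fruits. In the RPKM values their lateral means were also lower, but the groups overlapped and neither gene passed in limma. Why the methods differ in this was not tested. *MdPIN1* (MDP0000138035), an auxin efflux carrier, had 14.1, 17.9 and 19.7 RPKM in the central and 13.1, 15.3 and 11.3 RPKM in the lateral replicates. Its values overlapped between the groups, and its log2 fold change of -0.36 (standard error 0.15) did not pass in limma (adjusted p = 0.28, from 0.17 to 0.53 over 16 alternatives). *MdAHS* (MDP0000154046), an auxin:hydrogen symporter, had 7.14, 7.38 and 6.62 RPKM in the central and 7.89, 5.35 and 6.37 RPKM in the lateral replicates, also with an overlap (log2 fold change -0.11, adjusted p = 0.77 in limma, from 0.51 to 0.98 over 16 alternatives). Its central mean of 7.05 RPKM was under the minimum of 10 RPKM, so it could not have been a member whatever its lateral values. The ethylene receptor gene *MdETR102* (MDP0000920189) came close to the limit, its largest lateral value being 0.794 of its smallest central one. It had 31.0, 32.2 and 26.4 RPKM in the central and 18.4, 17.1 and 21.0 RPKM in the lateral replicates, with no overlap. By qRT-PCR the study also reports this gene lower in lateral than in central fruit seeds at this day after petal fall. In limma its log2 fold change was -0.65 with a standard error of 0.11 (Benjamini-Hochberg adjusted p = 0.013). Over 16 alternatives the adjusted p ran from 0.0053 to 0.28, and the call was lost in 5 of them, among these without central replicate 1 (log2 fold change -0.62) and without central replicate 2 (-0.60).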

How the data were processed

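RNA-seq libraries of apple seeds, 3 central and 3 lateral, were grouped by their labels. The authors trimmed the single-end reads, mapped them on version 1.0 of the apple genome and made the deposited RPKM values in the CLC Genomics Workbench (version not given in the sources used here). RPKM values are not counts, so limma 3.58.1 (R 4.3.3) was run on log2(RPKM + 0.5) with an eBayes trend and Benjamini-Hochberg adjustment, in the 37230 gene models that averaged 0.5 RPKM or more in 1 group or both. On this scale the change of a gene with low values is understated. Calls needed a fold of at least 1.5 with an adjusted p up to 0.05. Summaries used Python 3.11.15, numpy 2.4.6, pandas 2.3.3, scipy 1.17.1 and matplotlib 3.10.9.

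Whole reads were recovered by trying lengths between 60 and 30000 bases and keeping the first one for which the values, multiplied by this length and by the mapped reads given by the study, were whole within 0.001 reads in every library. This succeeded for all 55261 gene models above 0, and the recovered reads were between 99.39% and 99.43% of the mapped reads. Reads that map to several places are therefore included.

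The members and lists were chosen with earlier results of these data known. Named are the 8 members with the highest central mean, the 8 with the lowest ratio of means, the 4 with the widest gap, the 3 gene models on each side of the limit, pairs that may share reads, and 3 genes that the study names. Another gene model that met the limits is not reported here. Alternatives were other limits, pseudocounts, filters and scalings, no trend, voom, a replicate block and each library left out, and, chosen after seeing the data, the lane as a covariate and lane 7 only. The steps were tested on simulated data.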

Additional observations from a re-analysis of the deposited data

How the results depend on the processing

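The number of members, 58, followed the limits. It was 33 and 114 with a ratio limit of 0.7 and 0.8, and 95 and 35 with a central mean of at least 5 and 20 RPKM. It was between 84 and 111 with each library left out in turn: 101, 95 and 111 without central replicates 1 to 3 and 100, 99 and 84 without lateral replicates 1 to 3. With lane 7 only, chosen after seeing the data, it was 253. Rules on fewer libraries are easier to meet by their construction. Median-of-ratios scaling also gave 58, of which 53 were the same genes. The median log2 fold change of the members, -0.82 as reported, ran from -0.85 to -0.80 with each library left out.

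The number of members called in limma, 50, was between 43 and 48 with each library left out and 26 with the lane as a covariate, where their median log2 fold change was -0.83. Of the 18 members named by rule, 6 had a call that changed in at least 1 setting. The call was lost for MDP0000850409 in 6 of 16 alternatives and for MDP0000134273 in 2. For MDP0000213770 and MDP0000915991 it was lost in 1 each. Over all gene models tested, limma called 171 lower. This was 112 with no filter on low values, 39 with the lane as a covariate, and between 93 and 141 with each library left out (101 and 112 without central replicates 1 and 2, and 93 without lateral replicate 3). The cause was not tested. With the replicate block, 46 members and 96 gene models in all were called. The labels tie replicates of the same number by that number alone. Their deviations from the group means correlated at 0.01, -0.12 and -0.13 for replicates 1 to 3. Pairs of unlike number ran from -0.02 to 0.14. Such correlations cannot show what same-numbered pools share. The ratio of the summed RPKM was 0.516 instead of 0.545 without the strongest member. Of the members, 21 instead of 2 were in a pair with a length within 5% and a profile within 0.2. The log2 fold change of *MdAHS* (MDP0000154046), -0.11 as reported, ran from -0.25 to 0.011 with each library left out and changed sign without lateral replicate 2. Lateral replicate 1 is the shallowest library and limits the precision of members with few reads.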
